A study of Homo sapiens with 6 samples.

Results

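The genes described here are 8 transcription factors and transcriptional cofactors of kidney development, PAX2, PAX8, SIX2, SIX4, WT1, LHX1, EYA1 and SALL1, taken by symbol from the 19395 named genes of a count table. The list was selected on gene names with earlier results of the same libraries in view, their counts and group differences included, so their levels and group differences are given as a description and not as a test. Of the 8, 5 passed the filter on low counts, 1 (SIX2) had a few counts in every library and fell under it, and 2 (WT1 and EYA1) were at 0 or 1 count in total.

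Polyadenylated RNA was sequenced from DLD-1, an established human line labelled as colon epithelium. The 3 oeControl libraries carry the genotype label WT and are labelled untreated. The 3 oeTNFRSF12A libraries come from cells in which overexpression of TNFRSF12A, the receptor of the cytokine TWEAK, was induced with doxycycline at 0.1 µg/mL for 48 h, so the transgene and the drug cannot be told apart. The labels do not say whether control cells carry a construct, how many clones were used, or whether replicates were separate cultures, so p-values measure the spread between these libraries, which may be technical. Library totals were 18154839 to 18406885 counts, at which 1 CPM (a count scaled to a fixed library total) is about 18.2 counts, and 14577 to 14788 genes were detected per library. The induced gene itself was at 22.0 ± 1.599 in oeControl and 65.9 ± 4.29 CPM in oeTNFRSF12A (mean ± SD, n = 3 per group, as for all means here), a log2 fold change of 1.59 (SE 0.06, edgeR adjusted p = 4.17e-16).

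The embryonic kidney forms from the nephric duct, whose branch, the ureteric bud, makes the collecting system, and from the metanephric mesenchyme around it, which makes the nephrons. In mouse, Pax2 and Pax8 together specify the nephric lineage and Lhx1 acts in the duct and again in the early nephron. Eya1, Six2, Sall1 and Wt1 act in the mesenchyme, where Six2 keeps nephron progenitors from differentiating, Eya1 serves as a cofactor of Six2 and its relatives, and the mesenchyme sends GDNF to the RET receptor of the bud. In the adult, WT1 persists in podocytes, and PAX2 and PAX8 are used by pathologists as markers of renal epithelial tumours; PAX8 also marks thyroid and Muellerian epithelium.

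Among the members are 2 pairs of paralogues in which 1 gene was detected far more than the other, PAX2 above PAX8 and SIX4 above SIX2. The 250 bases before a RefSeq start of each of these 4 genes, for PAX2 the first of 2 starts, are printed to show how the promoters of a well detected and a poorly detected paralogue differ. They are read 5′ to 3′ on the gene's strand from GRCh38.p14. Capitals mark matches on either strand to the GC box (GGGCGG), the CCAAT box (CCAAT) or the core of the hypoxia response element (ACGTG or GCGTG). The regions are chr10:100735146-100735395 on the plus strand for PAX2, chr2:113278922-113279171 on the minus strand for PAX8, chr14:60724352-60724601 on the minus strand for SIX4 and chr2:45009453-45009702 on the minus strand for SIX2.
PAX2: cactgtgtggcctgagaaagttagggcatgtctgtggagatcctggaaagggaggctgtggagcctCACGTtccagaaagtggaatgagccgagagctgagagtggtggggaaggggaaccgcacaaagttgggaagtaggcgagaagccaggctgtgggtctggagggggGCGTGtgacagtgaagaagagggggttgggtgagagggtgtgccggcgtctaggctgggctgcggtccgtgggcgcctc
PAX8: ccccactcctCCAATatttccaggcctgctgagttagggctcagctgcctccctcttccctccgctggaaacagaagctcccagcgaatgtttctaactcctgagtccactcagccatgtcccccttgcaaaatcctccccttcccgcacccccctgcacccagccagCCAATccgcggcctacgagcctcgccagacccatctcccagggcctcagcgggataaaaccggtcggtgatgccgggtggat
SIX4: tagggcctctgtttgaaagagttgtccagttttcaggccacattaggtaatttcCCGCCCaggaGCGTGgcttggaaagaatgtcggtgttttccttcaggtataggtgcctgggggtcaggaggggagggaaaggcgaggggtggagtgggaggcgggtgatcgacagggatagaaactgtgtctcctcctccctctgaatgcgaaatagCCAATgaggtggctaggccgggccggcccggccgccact
SIX2: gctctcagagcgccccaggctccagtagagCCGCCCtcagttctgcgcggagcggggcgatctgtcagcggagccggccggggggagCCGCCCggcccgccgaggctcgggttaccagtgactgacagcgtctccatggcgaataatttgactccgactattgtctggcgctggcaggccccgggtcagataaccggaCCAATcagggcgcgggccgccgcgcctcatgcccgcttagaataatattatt

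The printed PAX2 window held 1 ACGTG and 1 GCGTG match and neither a GC box nor a CCAAT box. The window of the second PAX2 start, chr10:100745332-100745581, held no match to any motif searched, with a GC content of 66% and 15 CpG. The PAX8 window held 2 CCAAT boxes. SIX4 had 1 GC box, 1 CCAAT box and 1 GCGTG, and SIX2 had 2 GC boxes and 1 CCAAT box. Of 35114 RefSeq promoter windows of the same length, 42.6% held a GC box, 32.0% a CCAAT box, 18.5% ACGTG and 32.2% GCGTG, so each of these matches is common. None of the 4 printed windows held TATAAA, found in 10.7% of all windows, or GCGNGGGCG, a site of the WT1 and EGR zinc fingers found in 8.41%. The SIX2 window stood out by its CpG count, 26 against 11 in SIX4, 11 in PAX8, 10 in the printed PAX2 window and a median of 11 over all windows. GC content was 65.6% for SIX2, 61.6% for the printed PAX2 window and for PAX8, and 58% for SIX4, beside a median of 58%. In the printed windows of these 2 pairs, picked by their levels, the poorly detected gene did not have fewer GC or CCAAT boxes than its paralogue. Which start these cells use, and whether the boxes bear on the levels, was not tested.

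PAX2, the paired-box factor of the nephric lineage, spans chromosome 10, 100735603 to 100829941, on the plus strand of GRCh38. It was at 43.1, 48.5 and 47.2 CPM in the oeControl libraries and at 37.4, 37.2 and 35.6 CPM in the oeTNFRSF12A libraries, from 661 to 877 counts per library. Every oeTNFRSF12A library was below every oeControl library. The means were 46.3 ± 2.85 and 36.7 ± 0.961 CPM, a ratio of 0.794 and a log2 fold change of -0.33 (SE 0.05). No exon of PAX2 overlaps another annotated gene and none of its 6470 distinct 50-base stretches occurs in another transcript, so its counts are not shared with a paralogue at that length.

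PAX8, its closest relative among the members, lies on chromosome 2, 113215997 to 113278950, on the minus strand. It was at 2.39, 3.65 and 4.08 CPM in the control libraries and at 2.84, 3.00 and 2.75 CPM in the oeTNFRSF12A libraries, which is 43 to 74 counts. All oeTNFRSF12A values lay inside the range of the controls, where oeControl replicate 1 was the lowest library. The log2 fold change was -0.24, with an interval of 2 SE on each side from -0.59 to 0.12, so a fall as large as that of PAX2 lies inside it. Leaving out oeControl replicate 1 moved it to -0.43 with an edgeR adjusted p of 0.0464, so the call rests on that library. Of its 7400 exon bases, 685 are shared with the antisense gene PAX8-AS1, and without a stated strand setting reads there cannot be told apart.

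LHX1, a LIM homeobox factor of the nephric duct, lies on chromosome 17, 36936785 to 36944612, on the plus strand. Its control values were 12.2, 16.2 and 11.8 CPM and its oeTNFRSF12A values 14.1, 16.4 and 13.7 CPM. The groups overlapped because oeControl replicate 2 was as high as the oeTNFRSF12A libraries. The log2 fold change was 0.13, with a 2 SE interval of -0.08 to 0.35. Without oeControl replicate 2 it was 0.29 (edgeR adjusted p = 0.0210), so this value too depends on 1 library. An antisense gene, AC243773.1, shares 367 of the 4882 exon bases of LHX1. Of the 4922 distinct 50-base stretches of LHX1, 323 (6.56%) also occur, on either strand, in transcripts of AC243773.1 or the paralogue LHX5.

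SALL1, a zinc-finger protein that recruits the NuRD corepressor and is mutated in Townes-Brocks syndrome, lies on chromosome 16, 51135975 to 51151367, on the minus strand. It was at 34.4, 36.3 and 34.8 CPM in the controls and at 23.2, 24.0 and 26.6 CPM in the oeTNFRSF12A libraries, from 424 to 656 counts. The groups did not overlap. Its mean went from 35.2 ± 1.01 to 24.6 ± 1.81 CPM, a ratio of 0.700 and a log2 fold change of -0.51 (SE 0.06). Of its 5656 distinct 50-base stretches 33 (0.583%) also occur in the pseudogene SALL1P1.

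SIX4, a homeobox gene of kidney and muscle development, lies on chromosome 14, 60709528 to 60724348, on the minus strand. It was at 15.8, 17.1 and 15.97 CPM in the controls and at 18.2, 16.9 and 18.2 CPM in the oeTNFRSF12A libraries. The groups overlapped, through oeControl replicate 2 and oeTNFRSF12A replicate 2. The log2 fold change was 0.12 with a 2 SE interval of -0.02 to 0.27. Of its 6606 distinct 50-base stretches 181 (2.74%) also occur, on either strand, in transcripts of other genes, FEM1A and RCN2 among them.

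SIX2, the nephron progenitor factor, lies on chromosome 2, 45005161 to 45009430, on the minus strand. It had 9, 5 and 1 counts in the control libraries and 11, 8 and 11 in the oeTNFRSF12A libraries, all at or below 0.601 CPM. The ranges overlapped. Summed counts were 15 and 30, a ratio of 1.99 after scaling by library size, with an exact 95% interval of 1.04 to 3.98 that covers counting error only and not the spread between libraries. Without oeControl replicate 1 the gene passed the filter, with a log2 fold change of 1.67 (edgeR adjusted p = 0.0313), a value set against control libraries of 5 counts and 1 count. It was not called in the other runs that kept it, without oeControl replicate 2 (0.96), oeControl replicate 3 (0.48) or oeTNFRSF12A replicate 2 (1.09), nor with no filter (0.96, edgeR adjusted p = 0.130).

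WT1 had 1 count, in oeTNFRSF12A replicate 2, and EYA1 had 0 counts in all 6 libraries. With 3 counts over the 6 libraries, the floor used here for a count of 0, EYA1 would be at 0.0274 CPM. That floor pools both groups and gives no limit for either group alone. EYA1 transcripts were not detected in either group, and the 1 count of WT1 is too few to read a level or a difference.

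**Figure D1:**
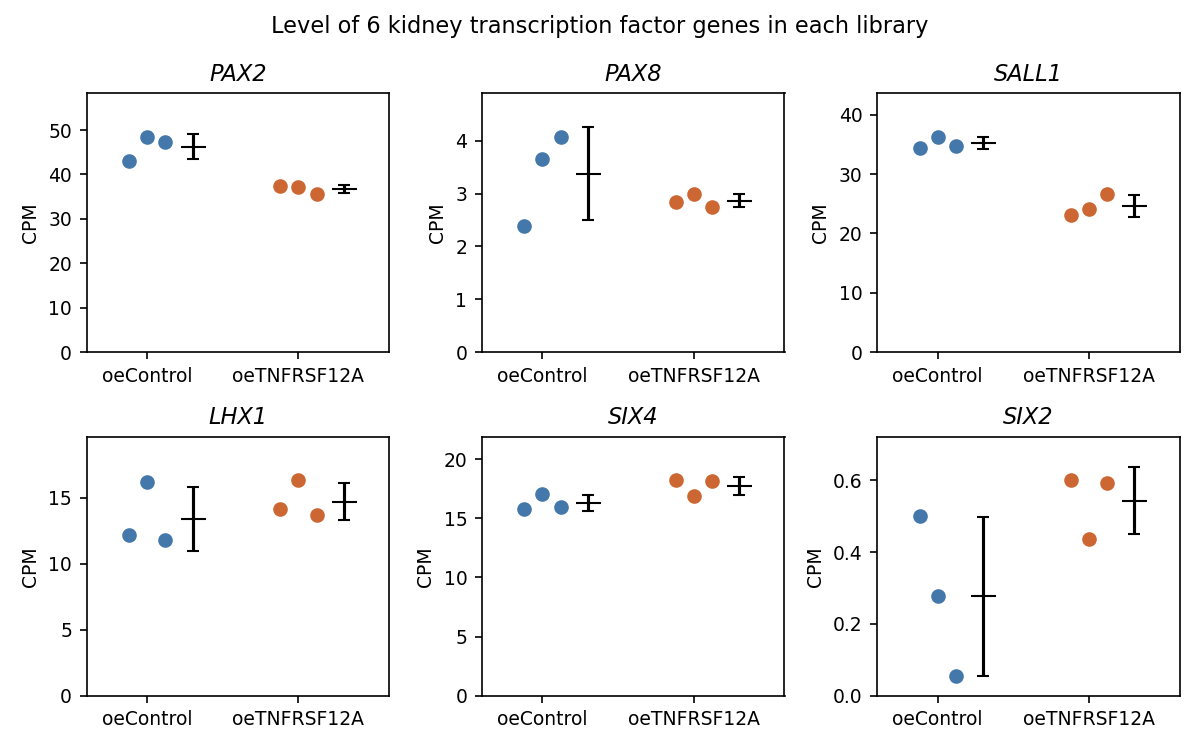
CPM of the 6 members with more than 1 count, in each of the 3 oeControl and 3 oeTNFRSF12A libraries; points are libraries, the bar beside them is the mean with 1 SD, and each panel has its own axis from 0. PAX2 and SALL1 are lower in every oeTNFRSF12A library than in every control, while the other 4 overlap.

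Set against all genes, 2 of the 5 tested members, PAX2 and SALL1, were called at an edgeR adjusted p under 0.05, both lower, where 42.3% of the 12758 tested genes were called, 21.1% lower and 21.2% higher. The groups did not overlap for the same 2 members, where they did not overlap for 51.3% of tested genes. Since the members were chosen with these values known, nothing is read from the counts. The bulk libraries cannot tell fewer expressing cells from less RNA per cell.

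To compare levels between genes, CPM were divided by the length of the union of exons. PAX2 was highest at 6.65 CPM per kb over the 6 libraries (5.71 to 7.77), above 69.4% of all genes with a length. SALL1 followed at 5.28 CPM per kb (4.09 to 6.41); its range overlapped that of PAX2 over all 6 libraries but not within either group. LHX1 at 2.88 and SIX4 at 2.56 CPM per kb overlapped each other and lay just above the median gene, at 2.18 CPM per kb. PAX8 at 0.421 CPM per kb (0.322 to 0.551) and SIX2 at 0.186 (0.0250 to 0.272) did not overlap each other. The level per kb of PAX2 was above that of PAX8 in every library. With the length of the longest annotated transcript in place of union exons, PAX2 stood at 10.0, LHX1 at 4.11 and PAX8 at 0.751 CPM per kb.

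**Figure D2:**
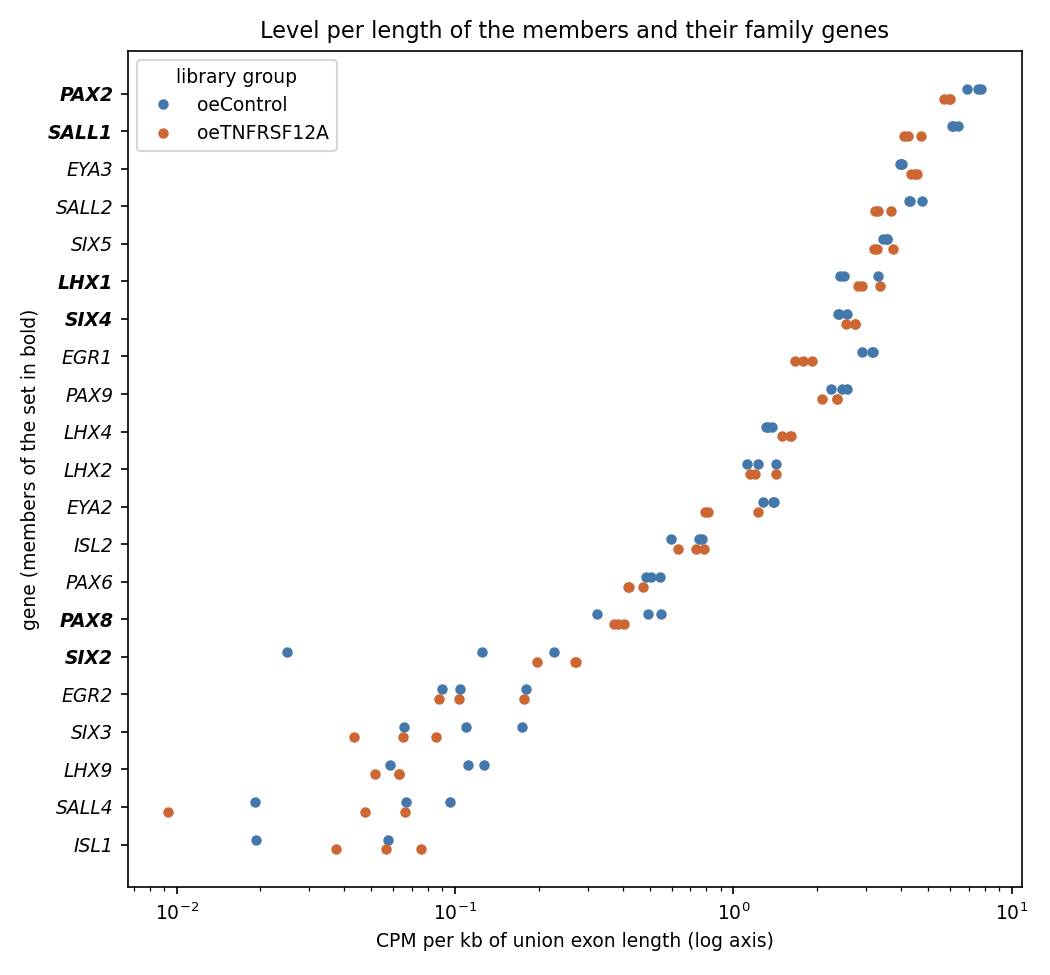
CPM per kb of union exon length, on a log axis, for the members in bold and for family genes with at least 10 counts that are reported here, one point per library; 1 library with 0 counts of ISL1 is not drawn. PAX2 and SALL1 lead the set, LHX1 lies above the other LIM homeobox genes drawn, SIX4 lies below SIX5, and PAX8 and SIX2 lie near the bottom.

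The remaining genes of the members' families were mostly weak. Of 34 family genes that are not members, 11 reached 1 CPM in all 6 libraries and 12 had 0 counts. Over all tested genes 21.2% were higher and 21.1% lower. Of the 12 tested family genes, 1 rose, 3 fell and 8 were not called. Their median log2 fold change was -0.09, beside 0.00317 for all tested genes. Those that fell were EGR1, SALL2 and EYA2, and the one that rose was EYA3.

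In the PAX family, PAX6, a regulator of eye and pancreas, was at 10.7 ± 0.660 and 9.11 ± 0.656 CPM, with a log2 fold change of -0.23 and an edgeR adjusted p of 0.0529. It was called lower without oeTNFRSF12A replicate 2 (-0.29, edgeR adjusted p = 0.0325), with upper-quartile factors (edgeR adjusted p = 0.0426) and with a minimum count of 50 (edgeR adjusted p = 0.0443). PAX9, a factor of pharyngeal and tooth development, was at 14.6 and 13.6 CPM and was not called (edgeR adjusted p = 0.349). PAX1, PAX3, PAX4 and PAX7 had 0 counts and PAX5 had 3 counts over all libraries.

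Among the relatives of SIX4 and EYA1, SIX5 was at 12.6 and 12.1 CPM (edgeR adjusted p = 0.643) and SIX3, next to SIX2 on chromosome 2, had 2 to 8 counts per library. With EYA1 at 0, the EYA cofactors present were EYA3, up from 26.0 ± 0.263 to 28.98 ± 0.685 CPM (log2 fold change 0.16, edgeR adjusted p = 0.0258), and EYA2, which fell from 4.90 ± 0.240 to 3.41 ± 0.880 CPM (log2 fold change -0.53, edgeR adjusted p = 0.00801). The EYA3 call was lost with DESeq2 (adjusted p = 0.125) and on leaving out any single library other than oeTNFRSF12A replicate 2, with log2 fold changes of 0.14 to 0.17. EYA2 lost its call without oeTNFRSF12A replicate 2, at -0.43 (edgeR adjusted p = 0.0510).

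SALL2, the paralogue of SALL1, fell from 23.9 ± 1.42 to 18.3 ± 1.36 CPM (log2 fold change -0.38, SE 0.07, edgeR adjusted p = 1.10e-04), and its groups did not overlap. SALL3 had 0 counts and SALL4 1 to 10 per library. EGR1, an immediate early gene whose zinc fingers bind sites like those of WT1, fell from 9.66 ± 0.497 to 5.61 ± 0.400 CPM (log2 fold change -0.78, SE 0.10, edgeR adjusted p = 1.35e-06). EGR2 had 6 to 12 counts per library.

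No LIM homeobox gene was called. LHX4, a pituitary factor, was at 8.11 ± 0.206 and 9.49 ± 0.382 CPM (log2 fold change 0.23, edgeR adjusted p = 0.0534) and was called higher without oeTNFRSF12A replicate 3 (0.26, edgeR adjusted p = 0.0440) and with library totals alone (edgeR adjusted p = 0.0348). LHX9 was at 1.03 ± 0.373 and 0.616 ± 0.0668 CPM (edgeR adjusted p = 0.0690) and was called lower without oeControl replicate 1 (edgeR adjusted p = 0.0171). LHX2 at 3.34 and 3.33 CPM and ISL2 at 1.57 and 1.595 CPM were not called, and ISL1 had 0 to 4 counts per library.

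Genes of the proteins with which these factors work were well detected. Of 24 cofactor genes, 23 reached 1 CPM and were tested, and LDB2 had 0 counts. Beside 21.2% higher and 21.1% lower over all tested genes, 8 cofactors rose, 6 fell and 9 were not called. The largest difference was that of CITED2, a coactivator of TFAP2 proteins that also acts with WT1 in mouse gonad, which fell from 80.6 ± 0.335 to 45.1 ± 1.40 CPM (log2 fold change -0.84, SE 0.04, edgeR adjusted p = 5.93e-14). FHL2, a LIM-only coactivator, fell from 46.2 ± 1.66 to 37.0 ± 1.08 CPM (log2 fold change -0.32, edgeR adjusted p = 1.22e-05). TLE2, a Groucho corepressor, went from 6.07 ± 0.589 to 4.65 ± 0.630 CPM (log2 fold change -0.38, edgeR adjusted p = 0.0188). Its call was lost with DESeq2 (adjusted p = 0.0952) and without oeControl replicate 1 (-0.30), oeTNFRSF12A replicate 1 (-0.30) or oeTNFRSF12A replicate 2 (-0.37).

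Of the chromatin partners, HDAC1, a deacetylase of the NuRD complex that SALL1 binds, fell from 151.7 ± 3.71 to 137.5 ± 3.59 CPM (log2 fold change -0.14, edgeR adjusted p = 0.00179). Of 10 NuRD subunits in the cofactor list 4 rose, 1 fell and 5 were not called. Those that rose were RBBP4, from 275.2 ± 2.34 to 305.8 ± 8.04 CPM (log2 fold change 0.15, edgeR adjusted p = 2.79e-04), MTA2, from 101.2 ± 3.32 to 114.6 ± 6.84 CPM (log2 fold change 0.18, edgeR adjusted p = 0.00129), MBD3 and GATAD2A. MBD3 was at 53.7 ± 4.79 and 60.1 ± 2.02 CPM (log2 fold change 0.16, edgeR adjusted p = 0.0178), and its call was lost with DESeq2 (adjusted p = 0.0514) and without oeControl replicate 2 (0.10) or oeControl replicate 3 (0.16). GATAD2A was at 61.7 ± 2.89 and 67.1 ± 2.72 CPM (log2 fold change 0.12, edgeR adjusted p = 0.0381). Its call was lost with DESeq2, with upper-quartile factors, with a minimum count of 50, and without oeControl replicate 1 (0.10), oeControl replicate 2 (0.10), oeTNFRSF12A replicate 2 (0.10) or oeTNFRSF12A replicate 3 (0.10). RBBP7, a relative of RBBP4, was at 298.5 and 298.1 CPM and was not called.

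BASP1, a corepressor of WT1, fell from 97.0 ± 4.40 to 88.3 ± 1.03 CPM (log2 fold change -0.14, edgeR adjusted p = 0.00720) and lost its call without oeControl replicate 1 (-0.10, edgeR adjusted p = 0.0738). LDB1, which bridges LIM homeodomain proteins such as LHX1, was at 91.2 ± 0.619 and 86.1 ± 1.196 CPM and was not called (edgeR adjusted p = 0.0713), but was called lower with upper-quartile factors (edgeR adjusted p = 0.0401) and with a minimum count of 50 (edgeR adjusted p = 0.0470). PAXIP1, which links PAX2 to histone H3 methyltransferases and was chosen after its values were seen, was at 25.3 ± 1.75 and 28.8 ± 0.335 CPM (log2 fold change 0.18, edgeR adjusted p = 0.0171). Its call was lost with DESeq2 (adjusted p = 0.0803), without oeControl replicate 2 (0.13) and without oeTNFRSF12A replicate 2 (0.18). The remaining cofactors that rose were WTAP, a WT1-associated subunit of the RNA methyltransferase complex, from 83.2 ± 2.17 to 94.4 ± 0.408 CPM (edgeR adjusted p = 3.71e-04), the Groucho corepressor TLE1 (log2 fold change 0.16, edgeR adjusted p = 0.0242) and the LDB1 partner SSBP3 (log2 fold change 0.19, edgeR adjusted p = 0.0406). TLE1 lost its call with DESeq2 and without oeControl replicate 1 (0.15), oeControl replicate 2 (0.13) or oeTNFRSF12A replicate 3 (0.11). SSBP3 lost it with DESeq2, with upper-quartile factors, and without oeControl replicate 1 (0.13), oeControl replicate 2 (0.18), oeTNFRSF12A replicate 1 (0.16) or oeTNFRSF12A replicate 2 (0.18). SSBP4, of the same family as SSBP3, fell from 32.5 ± 0.820 to 27.1 ± 0.637 CPM (log2 fold change -0.26, edgeR adjusted p = 4.91e-04). Several of these cofactors lie outside the naming rule and were chosen after their values were seen.

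**Figure D3:**
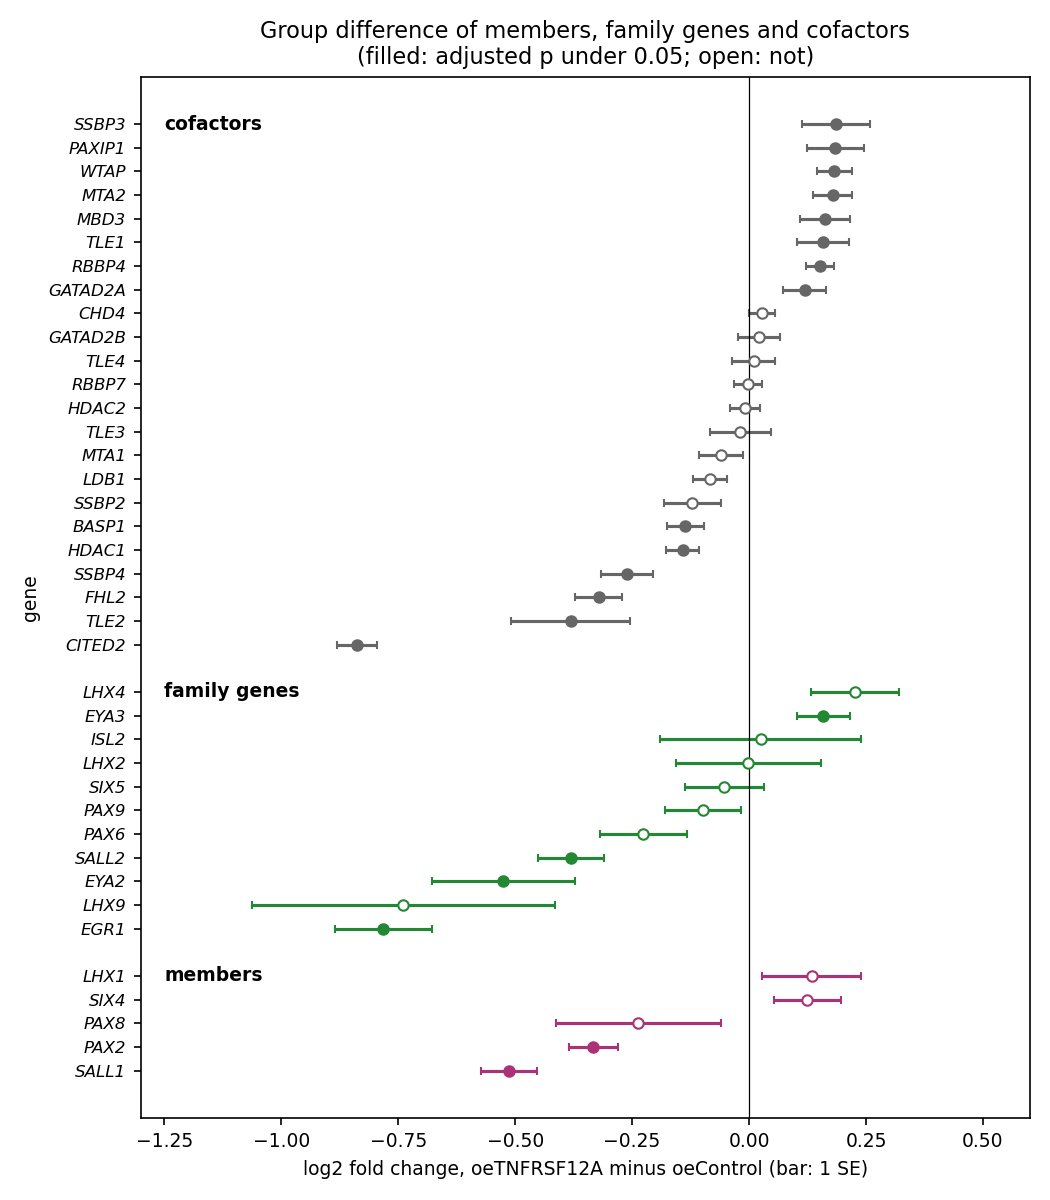
Log2 fold change of oeTNFRSF12A against oeControl with 1 SE for the 5 tested members, 11 of the 12 tested family genes and 23 tested cofactors; filled points have an edgeR adjusted p under 0.05. SALL1 and PAX2 lie to the left of 0 with EGR1, SALL2 and EYA2, and CITED2 is the farthest of the cofactors.

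The label of the cells was set against markers. Of 20 intestinal epithelial markers, 1 reached 1 CPM in all libraries, and the summed level of the list was 22.4 to 24.2 CPM in the controls and 20.8 to 23.3 CPM in oeTNFRSF12A. CDX1, CEACAM5, CEACAM6, MUC2, FABP1, PHGR1 and OLFM4 had 0 counts, CDX2 had 0 to 3 and EPCAM 0 to 4 counts per library. Of all 19395 genes, 61.6% reached 1 CPM. The RNA thus goes against the label of a colon epithelial line in both groups, and why it does was not tested.

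Of 124 other genes in 7 lists of kidney development and nephron segments, 48 (38.7%) reached 1 CPM in all libraries, beside 61.6% of all genes. Of the 124, 69 were under 1 CPM in all libraries and 22 had 0 counts. The share of a list that reached 1 CPM was highest for podocyte genes, with 10 of 15, followed by ureteric bud genes with 11 of 20 and proximal tubule genes with 11 of 22. It was lowest for nephron progenitor genes, with 5 of 27, and for the loop of Henle and distal tubule, with 3 of 16. Genes that define a segment were among those at 0 counts: SLC22A6 and SLC22A8 of proximal tubule, UMOD of the loop of Henle and AVPR2 of the collecting duct.

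**Figure D4:**
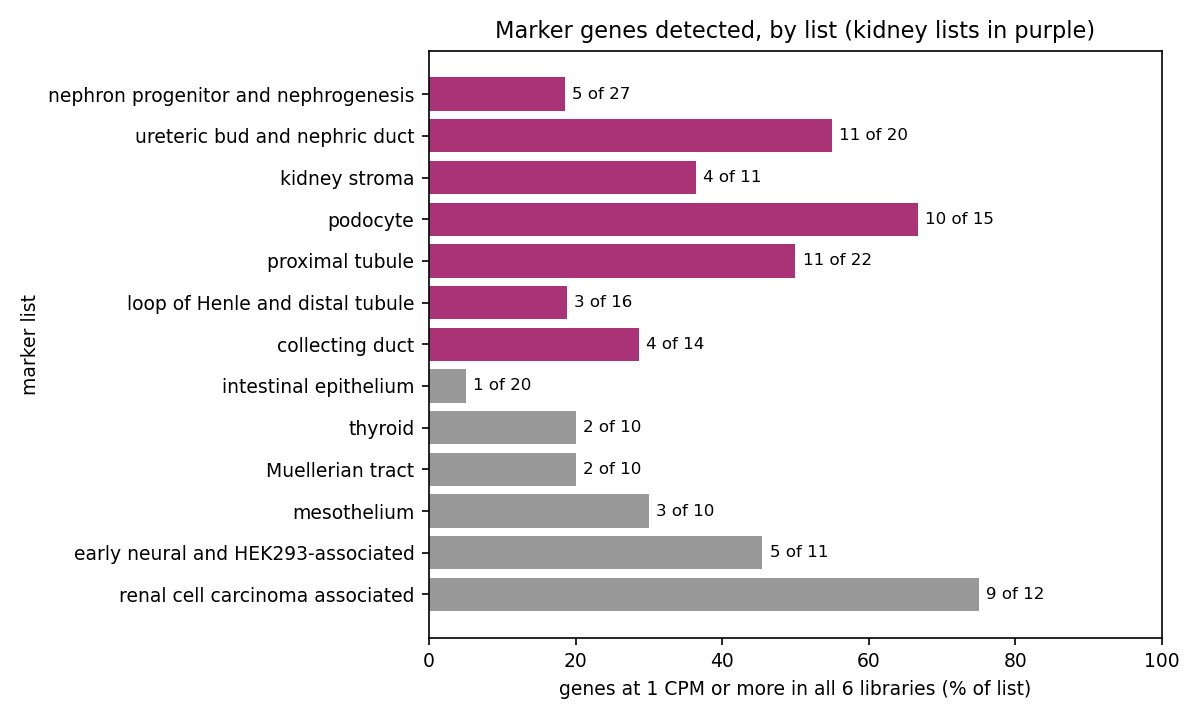
Share of each marker list that reached 1 CPM in all 6 libraries, in percent, with the number of genes beside each bar; kidney lists are purple and lists of other tissues grey. Podocyte and ureteric bud lists are the best detected of the kidney lists and the intestinal list, at 1 of 20, is the lowest of all. Of all genes 61.6% reached 1 CPM, and among the kidney lists only the podocyte list, at 66.7%, lies above that.

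Of the 124 genes 56 were tested: 6 rose, 24 fell and 26 were not called. Over all tested genes 21.2% were higher and 21.1% lower. The median log2 fold change of the 56 was -0.18, where that of all tested genes was 0.00317. The lists were chosen with earlier results known, so nothing is read from these counts or from those of the single lists below. The summed level of the 124 genes was 3900 to 3980 CPM in the controls and 3400 to 3510 CPM in oeTNFRSF12A. KIRREL1, a nephrin relative of the podocyte slit, made up much of that sum and fell from 1078 ± 24.7 to 884.9 ± 29.4 CPM (log2 fold change -0.28, edgeR adjusted p = 5.31e-08).

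In the nephron progenitor list, 1 of 7 tested genes rose, 3 fell and 3 were not called. JAG1, a Notch ligand of the early nephron, rose from 82.3 ± 1.247 to 138.6 ± 6.92 CPM (0.75 on the log2 scale, edgeR adjusted p = 9.49e-14). OSR1, the earliest factor of the intermediate mesoderm, fell from 7.78 ± 0.456 to 4.60 ± 0.894 CPM (log2 fold change -0.76, edgeR adjusted p = 3.41e-05), and its relative OSR2 was at 3.23 and 2.56 CPM without a call (edgeR adjusted p = 0.121). CRYM, a thyroid hormone binding protein, fell from 4.496 ± 0.687 to 2.10 ± 0.689 CPM (edgeR adjusted p = 5.35e-05). DLL1, another Notch ligand, went from 0.737 ± 0.0841 to 0.326 ± 0.145 CPM (log2 fold change -1.16, edgeR adjusted p = 0.0186). That call was lost with DESeq2 (adjusted p = 0.111) and without oeControl replicate 2 (-1.07), oeTNFRSF12A replicate 2 (-0.95) or oeTNFRSF12A replicate 3 (-1.04). CITED1 and GDNF, named after their values were seen, were under 0.1 CPM on average in both groups, and MEOX1 had 0 counts.

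In the ureteric bud and nephric duct list, 1 of 12 tested genes rose, 7 fell and 4 were not called. WNT7B, a ligand of the collecting system, fell from 201.7 ± 3.94 to 133.2 ± 4.32 CPM (log2 fold change -0.60, SE 0.03, edgeR adjusted p = 4.80e-13). TFAP2B, a factor of distal nephron and duct, fell from 1.198 ± 0.196 to 0.416 ± 0.163 CPM (log2 fold change -1.51, edgeR adjusted p = 6.83e-04), and nephronectin (NPNT), an integrin ligand that the bud lays down, fell from 53.8 ± 3.03 to 43.3 ± 2.79 CPM (edgeR adjusted p = 3.90e-05). LAMA5, a laminin chain, fell from 436.4 ± 12.6 to 386.7 ± 9.06 CPM (edgeR adjusted p = 6.59e-05).

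GFRA1, the coreceptor of GDNF, went from 133.2 ± 0.924 to 143.8 ± 7.27 CPM (log2 fold change 0.11, edgeR adjusted p = 0.0181), while RET was at 0.129 ± 0.139 and 0.0725 ± 0.0318 CPM and GATA3 at 0.0184 and 0.0180 CPM, both named after their values were seen. The GFRA1 call was lost with DESeq2 (adjusted p = 0.0546) and without oeControl replicate 2 (0.11), oeControl replicate 3 (0.11) or oeTNFRSF12A replicate 2 (0.07). SOX9, a factor of bud tips, was at 69.9 and 75.2 CPM (edgeR adjusted p = 0.154) and was called higher without oeTNFRSF12A replicate 3 (0.17, edgeR adjusted p = 0.00503).

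Of 10 tested podocyte genes 2 rose, 5 fell and 3 were not called. Synaptopodin (SYNPO), an actin organiser, fell from 77.5 ± 2.25 to 59.4 ± 2.17 CPM (log2 fold change -0.38, edgeR adjusted p = 9.26e-08), and the adaptor CD2AP, at 158.5 ± 5.65 and 166.6 ± 14.2 CPM, was not called (edgeR adjusted p = 0.268). CD2AP was called higher without oeTNFRSF12A replicate 3 (0.12, edgeR adjusted p = 0.0186). In the stroma list 1 of 5 tested genes rose, TBX18, a factor of ureteral mesenchyme, from 108.1 ± 3.54 to 122.3 ± 5.95 CPM (edgeR adjusted p = 7.94e-04), 1 fell and 3 were not called. FOXD1, which defines the stromal progenitors, was at 2.60 and 2.45 CPM (edgeR adjusted p = 0.716).

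Of 13 tested proximal tubule genes 1 rose, 5 fell and 7 were not called. PDZK1, a scaffold of brush border transporters, fell from 8.15 ± 0.291 to 2.52 ± 0.586 CPM (log2 fold change -1.69, SE 0.14, edgeR adjusted p = 4.91e-10), and the water channel AQP1 from 2.91 ± 0.373 to 1.22 ± 0.305 CPM (log2 fold change -1.26, edgeR adjusted p = 3.16e-05). HAVCR1, the kidney injury molecule, fell from 216.6 ± 9.93 to 174.4 ± 7.17 CPM (log2 fold change -0.31, edgeR adjusted p = 3.54e-07). The cadherin CDH6 went the other way, from 36.3 ± 2.64 to 45.1 ± 5.83 CPM (log2 fold change 0.31, edgeR adjusted p = 0.0150). It lost its call without oeControl replicate 1 (0.33) or oeTNFRSF12A replicate 1 (0.28). The peptidase MME, at 104.2 and 101.9 CPM, was not called (edgeR adjusted p = 0.522), nor was GATM, at 28.2 and 27.1 CPM (edgeR adjusted p = 0.485).

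In the loop and distal tubule list 1 of 5 tested genes fell, FXYD2, the gamma subunit of the sodium pump, from 211.4 ± 8.75 to 115.8 ± 11.5 CPM (log2 fold change -0.87, edgeR adjusted p = 6.08e-07). Of 4 tested collecting duct genes 2 fell. SCNN1A, a subunit of the epithelial sodium channel, fell from 35.6 ± 1.99 to 21.8 ± 1.74 CPM (log2 fold change -0.71, edgeR adjusted p = 2.72e-09), and ATP6V0A4, a proton pump subunit, from 10.9 ± 0.840 to 8.09 ± 0.746 CPM (log2 fold change -0.43, edgeR adjusted p = 9.21e-04). KRT7, a keratin of simple ducts, was at 164.8 ± 12.99 and 146.2 ± 17.2 CPM (edgeR adjusted p = 0.261) and was called lower without oeTNFRSF12A replicate 2 (-0.28, edgeR adjusted p = 6.87e-04) and with the replicate number as a block (edgeR adjusted p = 4.46e-04).

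**Figure D5:**
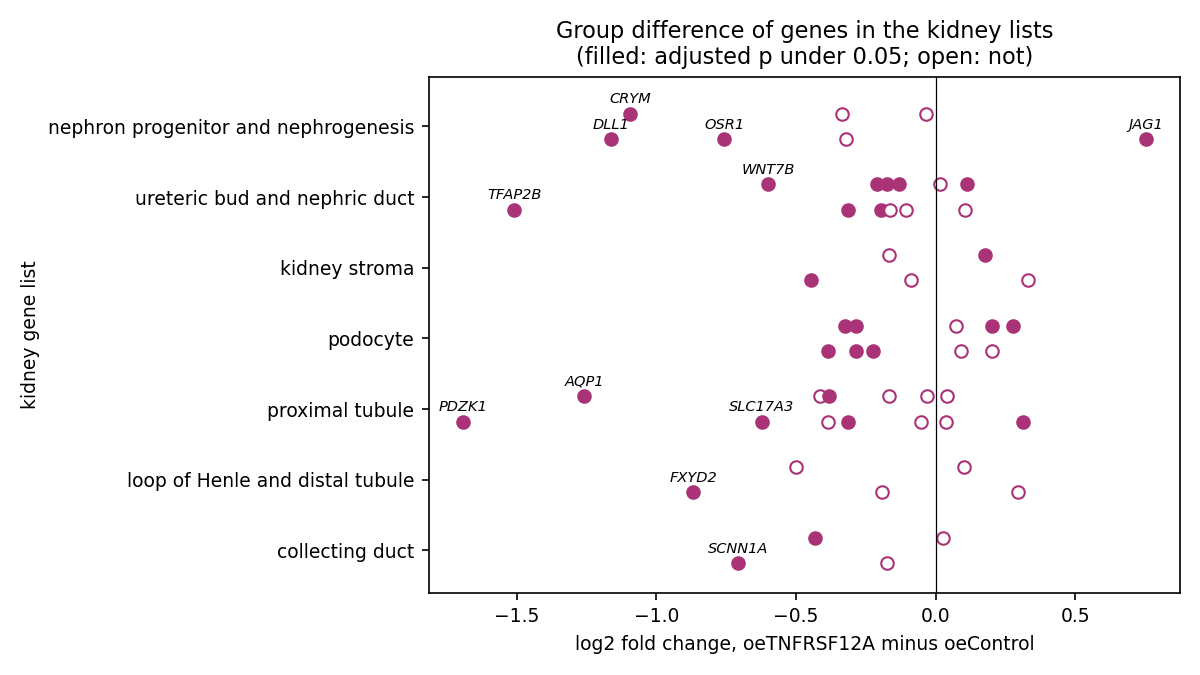
Log2 fold change of oeTNFRSF12A against oeControl for the 56 tested genes of the 7 kidney lists, one point per gene; filled points have an edgeR adjusted p under 0.05. PDZK1 and TFAP2B lie farthest to the left, and JAG1 is the farthest gene to the right of 0.

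Genes next to the members in the genome were also read. SLF2 lies 82628 bp beyond PAX2 and fell from 212.6 ± 6.42 to 178.1 ± 8.04 CPM (log2 fold change -0.26, edgeR adjusted p = 3.07e-06). PSD4, 6601 bp from PAX8, fell from 47.1 ± 2.07 to 35.1 ± 2.55 CPM (log2 fold change -0.42, edgeR adjusted p = 1.18e-06). AATF, 4263 bp from LHX1, rose to 129.4 ± 3.36 from 116.7 ± 5.97 CPM (log2 fold change 0.15, edgeR adjusted p = 0.00308). MNAT1, 10394 bp from SIX4, was at 28.8 and 28.9 CPM and was not called (log2 fold change 0.007, edgeR adjusted p = 0.933). SIX3, 59084 bp from SIX2, was not tested. SALL1 has no gene of the table within 100000 bp. Of all tested genes 42.3% were called, and whether neighbours and members change together was not tested.

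By Euclidean distance between log2 CPM profiles, each centred on its mean over the 6 libraries, the tested gene nearest to PAX2 was GOLGA7B at 0.0395, followed by ITGA4 at 0.0461 and FSTL3 at 0.0468. Nearest to SALL1 were SPON1 at 0.0537, PPP1R13L at 0.0601 and SLC27A1 at 0.0769, and nearest to SIX4 were BCL7B at 0.0397, KPNA5 at 0.0412 and PCNX3 at 0.0513. PAX8 and LHX1, whose libraries scattered most within a group, had their nearest genes farther off, LIN7A at 0.215 and DET1 at 0.159. These distances describe 6 libraries, over 12758 genes searched, and were not tested.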

How the data were processed

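RNA was extracted with TRIzol and mRNA isolated on oligo(dT) beads, per the labels' protocols. Per the submitters' processing notes, HISAT2 (2.2.1), Bowtie2 (2.4.5), RSEM (1.3.1) and the human builds GRCh38 and hg38 were involved. Not given in the sources used here are what each did and which annotation, strand setting or filters applied. Expected counts per gene symbol are what the authors' deposited values were taken to be; every value was whole and rounding changed none. Of 19396 rows, 1 names no gene, holds 0 counts (0% of the total) and was left out.

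The 8 members and all 19 gene lists were chosen with earlier results of these data known. In R 4.3.3, edgeR 4.0.16 (filterByExpr, minimum count 10; TMM, factors 0.988 to 1.01; robust quasi-likelihood F test, group only) tested 12758 genes and set 6637 aside. Calls used a Benjamini-Hochberg adjusted p under 0.05 over all tested genes. CPM used TMM-scaled totals. Lengths, positions and overlaps came from GENCODE 29 on GRCh38, which may not be the authors' annotation; 18818 genes had a length. Promoters came from RefSeq (GRCh38.p14); 5 of 8 members had one that could be used. Intervals and floors (3 counts) cover counting error only, and PCR copies are not independent molecules.

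Besides the members, the naming rule took every family gene with at least 10 counts and, from each other list, up to 4 genes of the highest CPM per kb and up to 3 called genes of the largest fold change, plus neighbours within 100000 bp and the 3 nearest profiles. Some genes that the rule takes are not reported here, and genes given only as 0 or a few counts were picked after their values were seen. Alternatives were other scaling factors, filters, DESeq2 1.42.0, the replicate number as a block, the longest transcript as length, and leaving out each library. No pair of replicates agreed within sampling noise (chi-square 1.61 to 3.35 per gene within groups, 17.7 to 19.8 between).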

Additional observations from a re-analysis of the deposited data

How the results depend on the processing

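Over all tested genes, 2709 were higher and 2693 lower; DESeq2's Wald test gave 1937 and 1989, library totals alone 3165 and 2433, and upper-quartile factors 2468 and 2865. The number of members called ranged from 2 to 4 on leaving out each library (4 without oeControl replicate 1). Kidney list genes called higher, 6 in the main comparison, ranged from 3 to 8 in those runs (3 without oeTNFRSF12A replicate 1). Family genes called higher, 1 in the main comparison, numbered 2 with library totals alone and 0 with DESeq2, and 0 to 1 on leaving out each library. Cofactors called higher, 8 in the main comparison, numbered 3 with DESeq2 and 3 to 7 on leaving out each library. With the longest transcript as length, levels moved to 10.0 CPM per kb for PAX2, 0.751 for PAX8 and 4.11 for LHX1. Over all tested genes, deviations of same-numbered replicates from their group means were nearly uncorrelated (correlations of -0.0193, 0.0167 and 0.0350). Counting noise lowers such correlations, so they cannot tell whether the numbers pair the libraries. With the replicate number as a block, 2711 genes were higher and 2685 lower, 2 members were called, and 6 and 24 kidney genes. For the 65 single genes with a fold change followed through the alternatives, 777 gene-by-alternative values kept direction and side of the threshold, 47 lost and 14 gained a call, and 0 changed direction. The 65 do not take in every tested gene named in the text, so the 0 holds for them alone. At 18.2 counts per CPM, differences of SIX2, WT1 and EYA1 are limited by counting error.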

Other observations

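In the thyroid, Muellerian and mesothelial lists, of tissues that share PAX8, WT1 or PAX2, few genes reached 1 CPM in all libraries. Their shares were above those of the nephron progenitor list and of the loop and distal tubule list. They were below those of the podocyte, ureteric bud, proximal tubule and stroma lists, and the collecting duct list lay between them. Of 10 thyroid markers 2 reached 1 CPM in all libraries, HHEX at 28.6 and 28.7 CPM and FOXE1 at 2.18 and 2.23 CPM, and 0 of 3 tested were called by edgeR. Of 10 Muellerian markers 2 reached 1 CPM. Of 10 mesothelial markers 3 did, and of 4 tested 3 fell: the uroplakin UPK1B from 28.9 ± 2.26 to 9.44 ± 0.609 CPM (log2 fold change -1.61, SE 0.08, edgeR adjusted p = 2.70e-14), the calcium-binding protein CALB2 from 18.7 ± 1.24 to 15.1 ± 1.75 CPM (log2 fold change -0.31, edgeR adjusted p = 0.00400) and UPK3B from 1.27 ± 0.169 to 0.615 ± 0.221 CPM (log2 fold change -1.04, edgeR adjusted p = 0.00678), whose call was lost with DESeq2 (adjusted p = 0.0515). All values are means ± SD of 3 libraries, control first. Beside the calls in these lists and in those that follow, 21.2% of all tested genes were higher and 21.1% lower.

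Of 11 early neural and HEK293-associated genes 5 reached 1 CPM in all libraries, PAX6 among them. The summed level of the list was 324 to 335 CPM in the controls and 314 to 325 CPM in oeTNFRSF12A. The other 6 had 0 counts, NEFL, NEFM, OTX2, ELAVL4 and STMN2 among them. Of 12 genes associated with renal cell carcinoma 9 reached 1 CPM; 3 rose, 4 fell and 2 were not called. Vimentin (VIM), an intermediate filament, rose from 4230 ± 95.5 to 4620 ± 107 CPM (log2 fold change 0.13, edgeR adjusted p = 0.00132), and ceruloplasmin (CP), a copper-carrying ferroxidase, fell from 361.0 ± 17.4 to 149.1 ± 16.6 CPM (SE 0.08 on the log2 scale, edgeR adjusted p = 4.69e-05).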
